A study of Mus musculus with 8 samples.

Results

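The genes described here are 10 members of the pathway of Wnt and R-spondin signals that patterns the liver lobule: the secreted ligands Rspo3, Wnt2 and Wnt9b, the R-spondin receptors Lgr4 and Lgr5, the membrane ubiquitin ligases Znrf3 and Rnf43, the transcriptional targets Axin2 and Tbx3, and the secreted inhibitor Notum. They were chosen by gene symbol and make up 10 of the 32285 genes in the count files, and each symbol named a single gene. Their unique molecular identifiers (UMIs, 1 for each captured RNA molecule) were summed per mouse over all nuclei and over nuclei placed in a cell class by marker genes, with no member among the markers. Levels are given as CPM, UMIs scaled to a total of 1000000 UMIs of the same sum.

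The data are single-nucleus RNA sequencing of snap-frozen livers of 8 male DIAMOND mice, a cross of the 129A1/SvIm and C57BL/6J strains that develops fatty liver disease and liver tumours on a Western diet high in fat and sugar. In the WD tumour group (n = 3 mice) the Western diet was given for 48 weeks and hepatocellular carcinoma developed. In the RD tumour group (n = 2) the Western diet was followed after 36 weeks by a return to standard chow, and carcinoma developed all the same. The RD no tumour group (n = 3) had the same diet reversal with no carcinoma detected. Every group therefore had received at least 36 weeks of Western diet, and no mouse was fed chow throughout. The labels place collection at 48 weeks of age, which does not match diets begun at an age of months and continued for 48 weeks, so the age at collection is uncertain. The labels do not say whether the piece of liver taken from a tumour-bearing mouse held tumour. The marker gate cannot separate hepatocytes from tumour cells of hepatocyte origin. Each library comes from a separate mouse.

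The libraries held 17948627 to 34363108 UMIs in 6048 to 20000 nuclei with at least 300 genes, with a median of 1120 to 2656 UMIs per nucleus. The library of RD tumour 1 stood apart. It held exactly 20000 barcodes, 40.6% of them in no class against 4.31% to 13.4% in the other mice, and its summed profile correlated with the other libraries at 0.740 to 0.855. It had 94 stellate nuclei against 388 to 1048 in the others, and no nucleus in the T and NK, B or cholangiocyte classes. The mitochondrial share of a nucleus's UMIs had a median of 7.91% and 7.51% in the mice WD tumour 1 and WD tumour 3, and of 1.30% to 3.28% elsewhere. No pair of libraries shared more than 65 barcodes. Hepatocyte transcripts were read in every class: the 16 hepatocyte markers made up 2.26% to 4.07% of the UMIs of the endothelial class and 2.83% to 5.27% of those of the hepatocyte class, so the endothelial-class level of a gene made by hepatocytes may include hepatocyte transcripts. Free RNA, doublets and misplaced nuclei were not told apart as their source.

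As background, hepatocytes along the axis from portal tract to central vein carry out different tasks, and Wnt signalling near the central vein switches on the central programme. Endothelial cells of the central vein and of the adjoining sinusoids are known sources of Wnt2, Wnt9b and Rspo3, and stellate cells are a further known source of Rspo3. Wnt ligands bind Frizzled receptors and stabilise beta-catenin. Znrf3 and Rnf43 remove Frizzled from the cell surface, and R-spondins, bound to Lgr4 or Lgr5, take Znrf3 and Rnf43 out of action. Axin2, part of the complex that destroys beta-catenin, and Notum, an enzyme that removes the lipid from Wnt proteins, are feedback inhibitors that the pathway itself induces, and Lgr5, Rnf43, Znrf3 and Tbx3, a transcription factor, are known targets too.

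In the GRCm38 annotation, 5 members lie on chromosome 11: Wnt9b (chr11:103727364-103749821), Znrf3 (chr11:5276324-5444847), Rnf43 (chr11:87662722-87735539), Axin2 (chr11:108920349-108950783) and Notum (chr11:120653788-120661175). The others are Rspo3 (chr10:29452416-29535867), Lgr5 (chr10:115450311-115587780), Wnt2 (chr6:17988940-18030585), Lgr4 (chr2:109917647-110014257) and Tbx3 (chr5:119670669-119684724). All are protein-coding genes. Rspo3, Lgr5, Axin2, Tbx3 and Notum each overlap a gene on the opposite strand that is also in the count files, while 1110028F11Rik lies within Rnf43 on the same strand. How the counting divided reads between overlapping genes is not given in the sources used here. The RefSeq promoter table (GRCm38.p6; 250 bases before to 50 after the start of transcription) matched 5 of the 10 members: Wnt2, Wnt9b, Lgr4, Rnf43 and Axin2. The promoters of both endothelial Wnt ligands and of the feedback target Axin2 are shown because the values below turn on these genes. Capitals mark matches to the letters AGATAA or AGATAG and their variants TGATAA or TGATAG, the core bound by GATA factors, on either strand.
Wnt2, chr6:18030396-18030695, minus strand: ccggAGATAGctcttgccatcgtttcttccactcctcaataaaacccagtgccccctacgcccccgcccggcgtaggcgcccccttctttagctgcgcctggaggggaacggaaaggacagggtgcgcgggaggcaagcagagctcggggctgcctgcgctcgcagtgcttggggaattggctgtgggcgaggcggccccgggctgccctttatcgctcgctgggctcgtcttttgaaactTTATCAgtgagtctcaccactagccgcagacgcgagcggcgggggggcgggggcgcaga
Wnt9b, chr11:103749772-103750071, minus strand: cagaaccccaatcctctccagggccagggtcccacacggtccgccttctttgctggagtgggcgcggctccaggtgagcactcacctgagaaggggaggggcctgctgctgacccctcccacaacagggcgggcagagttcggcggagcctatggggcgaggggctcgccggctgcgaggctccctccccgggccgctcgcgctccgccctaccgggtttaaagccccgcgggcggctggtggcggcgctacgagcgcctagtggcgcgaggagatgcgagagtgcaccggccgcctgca
Axin2, chr11:108920099-108920398, plus strand: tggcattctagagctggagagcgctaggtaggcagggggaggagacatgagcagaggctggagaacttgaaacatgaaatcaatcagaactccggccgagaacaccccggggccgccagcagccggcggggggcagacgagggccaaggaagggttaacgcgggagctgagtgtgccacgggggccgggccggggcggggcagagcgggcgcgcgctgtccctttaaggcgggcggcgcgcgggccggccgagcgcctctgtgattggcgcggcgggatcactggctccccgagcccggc
The Wnt2 window held 2 such matches, AGATAG on the gene's own strand 246 bases before the start and TGATAA on the opposite strand (printed as TTATCA) 9 bases before it. The second of the Rnf43 promoters in the table held 3, the windows of Wnt9b, Axin2, Lgr4 and the first Rnf43 promoter held none, and 29.8% of 32851 mouse promoters of this length held at least 1. The letters CTTTGAT or CTTTGTT, bound by the TCF/LEF factors that act with beta-catenin, were in none of the members' windows on either strand, and in 9.33% of all promoters. An absent match says only that these letters are not in this window.

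Among the classes with a level, Rspo3 was highest in the stellate class and Wnt2 in the endothelial class in 8 of 8 mice. The Wnt2 level of RD tumour 1 rests on 7 endothelial UMIs. Wnt9b was highest in the endothelial class in the mice other than RD tumour 1. In the stellate class, Rspo3 stood at 75.0 (13 UMIs) and 268 CPM in RD tumour 1 and 2, at 457, 322 and 300 CPM in RD no tumour 1 to 3, and at 223, 374 and 223 CPM in WD tumour 1 to 3. In the endothelial class, Rspo3 stood at 16.8 and 50.3 CPM in the RD tumour mice, at 124, 90.1 and 39.2 CPM in the RD no tumour mice, and at 105, 94.2 and 44.4 CPM in the WD tumour mice. The stellate level exceeded the endothelial level in 8 of 8 mice, by 2.12-fold to 7.64-fold with a median of 4.23-fold. Over the 7 mice other than RD tumour 1, stellate nuclei held 49.0% ± 9.96 (SD) of the Rspo3 UMIs of a library and endothelial nuclei 24.2% ± 7.35, although endothelial nuclei outnumbered stellate nuclei in 8 of 8 mice.

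Wnt2 in the endothelial class stood at 3.26 (7 UMIs) and 12.9 CPM in RD tumour 1 and 2, at 31.5, 36.3 and 38.7 CPM in RD no tumour 1 to 3, and at 28.7, 19.5 and 17.6 CPM in WD tumour 1 to 3. The 3 groups did not overlap, with RD no tumour highest and RD tumour lowest. Against RD no tumour, 6.88% of genes were lower without overlap in RD tumour and 3.03% in WD tumour. In WD tumour 10.8% were higher without overlap than in RD tumour. The share of genes with all 3 groups apart was not computed. Wnt9b was sparse, with 2 to 33 UMIs per mouse in the endothelial class. Its level was 0.931 and 2.90 CPM in the RD tumour mice, 11.3, 5.85 and 4.62 CPM in the RD no tumour mice, and 4.23, 14.3 and 2.03 CPM in the WD tumour mice. Endothelial nuclei held a mean of 71.4% of the Wnt2 UMIs (51.0% to 80.4%) and 74.5% of the Wnt9b UMIs (63.2% to 87.5%) over the same 7 mice, and stellate nuclei 3.64% and 1.13%. RD tumour 1 differed: its stellate nuclei held 2.61% of the Rspo3 UMIs and its endothelial nuclei 8.43% of the Wnt2 and 4.17% of the Wnt9b UMIs. Its hepatocyte nuclei held 29.1%, 31.3% and 41.7% of the Rspo3, Wnt2 and Wnt9b UMIs, and its nuclei in no class 51.6%, 47.0% and 43.8%.

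**Figure D1:**
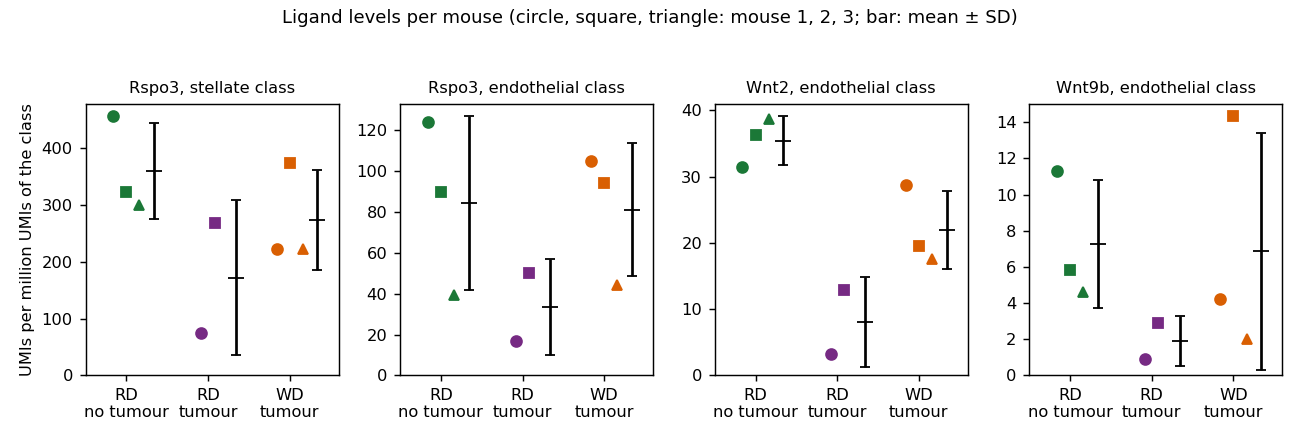
Levels in UMIs per 1000000 UMIs of the class (vertical axis) of Rspo3 in the stellate and endothelial classes and of Wnt2 and Wnt9b in the endothelial class, by group, with a circle, square and triangle for mouse 1, 2 and 3 and a bar for mean ± SD. For endothelial Wnt2 the RD no tumour mice (31.5 to 38.7) lie above the WD tumour mice (17.6 to 28.7), and these above the RD tumour pair (3.26 and 12.9).

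Set against hepatocyte nuclei of the same mouse, all 3 ligands were higher in endothelial nuclei. In a fit of edgeR's quasi-likelihood test over all genes with the mouse as a block, the log2 ratio of endothelial to hepatocyte class was 3.31 ± 0.51 (SE) for Rspo3 (adjusted p = 5.78e-04), 4.60 ± 0.56 for Wnt2 (2.39e-04) and 3.57 ± 0.60 for Wnt9b (8.94e-04). The other 7 members were lower in the endothelial class, with log2 ratios from -1.01 (Lgr5) to -0.76 (Lgr4) and adjusted p from 3.67e-04 to 0.00342. The part of the hepatocyte transcripts read in the endothelial class in the levels of these 7 genes was not tested. All 10 members passed, against a background of 21.3% of 14581 genes called higher and 30.5% called lower in endothelial nuclei. RD tumour 1 separated the classes least: its own log2 ratio was 0.23 for Rspo3 and 0.40 for Wnt2, against 2.10 to 5.33 and 3.35 to 6.56 in the other mice, and -0.81 for Wnt9b, from 2 endothelial UMIs. Without it all 10 members passed again.

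Within the endothelium the ligands lay on the central side. Endothelial nuclei were split by markers of the central vein side (Kit, Thbd, Cdh13) and of the portal side (Efnb2, Dll4, Adgrg6, Ltbp4, Ntn4), which gave 67 to 460 central-side and 91 to 544 portal-side nuclei per mouse. Rspo3 on the central side stood at 23.0 (5 UMIs) and 139 CPM in RD tumour 1 and 2, at 319, 286 and 74.1 CPM in RD no tumour 1 to 3, and at 421, 140 and 142 CPM in WD tumour 1 to 3. On the portal side of the same mice it stood at 20.5, 33.1, 49.4, 54.6, 13.7, 33.7, 70.4 and 27.8 CPM, in the same order. Rspo3 was higher on the central side in 8 of 8 mice, with a mean log2 ratio of 2.09 ± 1.06 (SD, n = 8; exact two-sided sign-flip permutation test, p = 0.00781, the smallest possible with 8 mice). In RD tumour 1 the log2 ratio was 0.17, from 5 UMIs on each side, so its direction rests on the gate totals alone. The paired edgeR fit over 8648 genes gave 2.38 ± 0.16 (SE, adjusted p = 8.96e-16).

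Wnt2 on the central side stood at 47.4 CPM in RD tumour 2, at 83.4, 111 and 68.3 CPM in the RD no tumour mice, and at 76.3, 56.1 and 65.5 CPM in the WD tumour mice. The portal-side levels were 6.90 CPM in RD tumour 2, 19.2, 25.6 and 19.3 CPM in the RD no tumour mice, and 14.2, 12.6 and 13.9 CPM in the WD tumour mice. RD tumour 1 had no Wnt2 UMI in either gate, so its ratio carries no information and 7 mice inform the comparison, each with the central side higher. The paired edgeR fit gave a log2 ratio of 2.18 ± 0.17 (SE, adjusted p = 4.01e-13), and 2.18 ± 0.17 without RD tumour 1. Without RD no tumour 3, which held 460 of the central-side nuclei, Wnt2 did not pass the low-count filter and was not tested, while Rspo3 still passed.

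Rspo3 and Wnt2 were the 2 members called out of 7 tested between the sides, against a background of 1.12% of genes called higher and 0.312% called lower on the central side. Wnt9b had 50 UMIs on the central and 26 on the portal side over all mice, too few for the edgeR fit. It was higher on the central side in 7 of 8 mice (mean log2 ratio 2.22 ± 1.75, SD, n = 8; exact sign-flip permutation test, unadjusted p = 0.0234), where 5.4% of 15190 genes had an unadjusted exact p under 0.05 in that direction. The receptors, ligases and Tbx3 did not pass, with edgeR log2 ratios between -0.35 and 0.10 and adjusted p from 0.468 to 0.959. Axin2 and Notum were below the edgeR filter there.

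**Figure D2:**
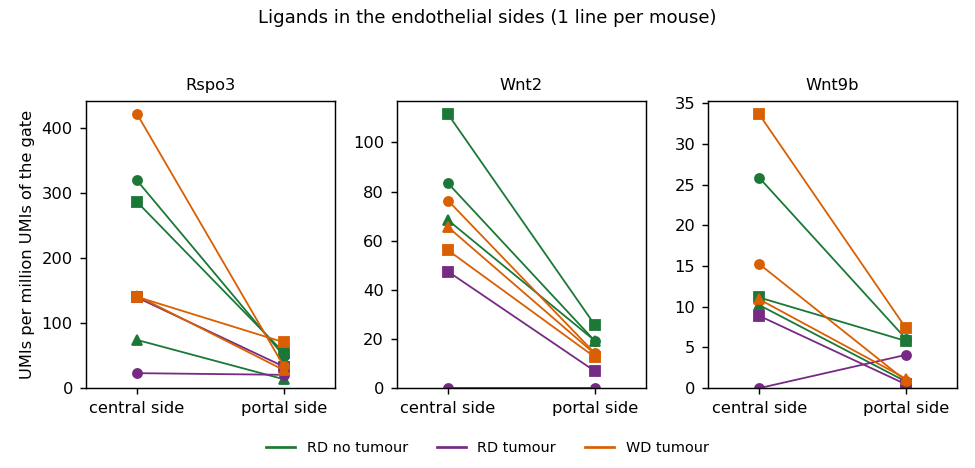
Levels of Rspo3, Wnt2 and Wnt9b in UMIs per 1000000 UMIs of the gate (vertical axis) on the central and portal side of the endothelium, with 1 line for each mouse coloured by group. Rspo3 drops from the central to the portal side in all 8 mice, nearly flat in RD tumour 1 (23.0 to 20.5), whose Wnt2 line lies at 0 and whose Wnt9b line runs the other way.

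In the hepatocyte class, the receptors, ligases, targets and Notum shared a low level in RD tumour 1 and were read throughout the other mice. Lgr5, the receptor that marks hepatocytes next to the central vein, stood at 5.57 and 90.0 CPM in RD tumour 1 and 2, at 67.7, 45.4 and 68.9 CPM in RD no tumour 1 to 3, and at 47.9, 91.8 and 65.0 CPM in WD tumour 1 to 3. Axin2 stood at 3.58 and 22.1 CPM in the RD tumour mice, at 8.43, 10.8 and 8.99 CPM in the RD no tumour mice, and at 11.5, 15.5 and 14.6 CPM in the WD tumour mice. Notum stood at 3.48 and 66.6 CPM in the RD tumour mice, at 7.31, 29.3 and 30.5 CPM in the RD no tumour mice, and at 29.3, 25.1 and 41.6 CPM in the WD tumour mice. The pair of RD tumour mice thus held the lowest and the highest level of Axin2 and of Notum among the 8 mice, so a mean over them describes neither.

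Rnf43 stood at 10.1 and 128 CPM in RD tumour 1 and 2, at 73.9, 87.2 and 80.8 CPM in RD no tumour 1 to 3, and at 124, 175 and 168 CPM in WD tumour 1 to 3. Every WD tumour mouse was above every RD no tumour mouse, and RD tumour 2 lay within the WD tumour range. Znrf3, the companion ligase, ranged from 105 to 217 CPM outside RD tumour 1 (86.7 CPM), Tbx3 from 21.8 to 80.7 CPM (7.57 CPM in RD tumour 1) and Lgr4 from 98.4 to 158 CPM (70.1 CPM in RD tumour 1). RD tumour 1 was the lowest of the 8 mice for each of these 7 genes. Hepatocyte nuclei held 60.9% (Znrf3) to 70.2% (Lgr5) of the UMIs of these 7 genes, as means over the other 7 mice.

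**Figure D3:**
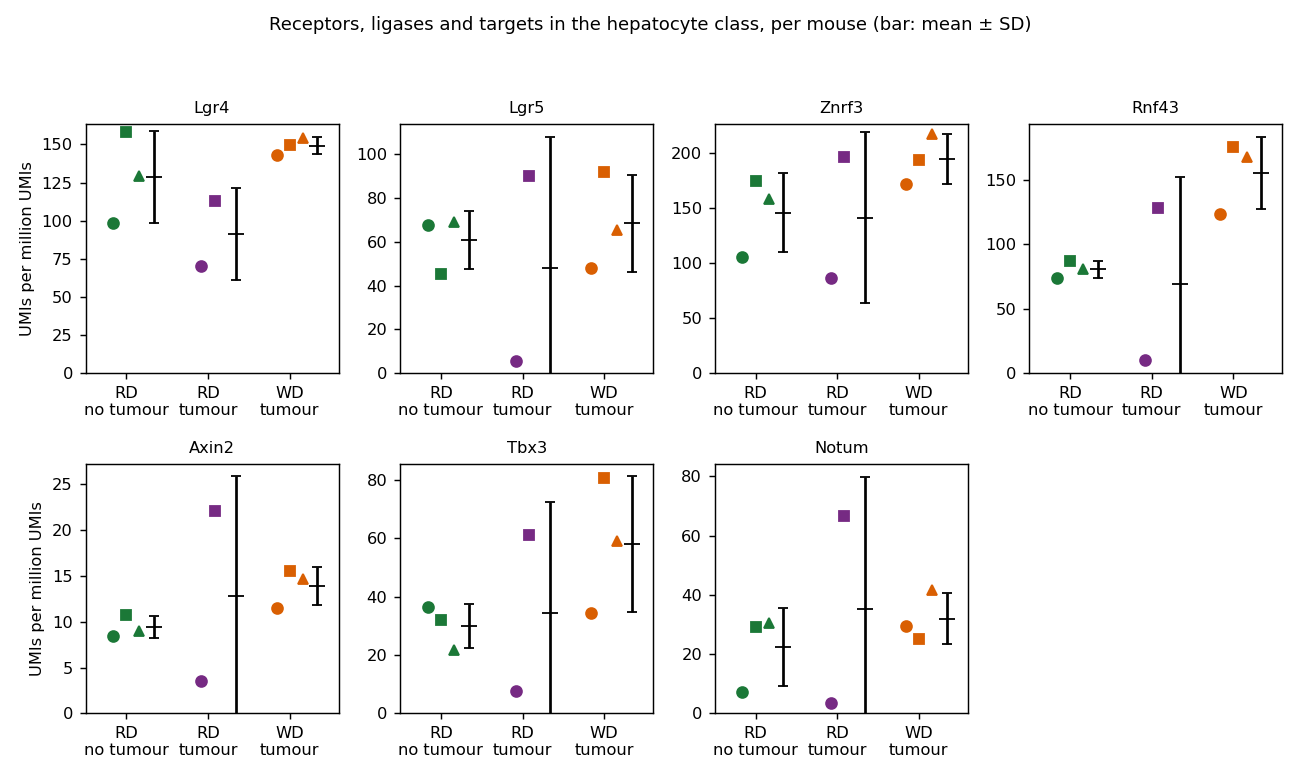
Levels of 7 members in UMIs per 1000000 UMIs of the hepatocyte class (vertical axis), by group, with a circle, square and triangle for mouse 1, 2 and 3 and a bar for mean ± SD, whose lower end is hidden where it falls below 0. RD tumour 1 is the lowest point for every gene, and for Rnf43 the 3 WD tumour mice (124 to 175) sit above the 3 RD no tumour mice (73.9 to 87.2).

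Across the lobule, 6 members were higher in central than in portal hepatocyte nuclei and Lgr4 was slightly lower. Hepatocyte nuclei were gated by the central genes Glul, Slc1a2, Oat, Cyp1a2, Lhpp, Rhbg, Gulo and Cyp2a5 or the portal genes Cyp2f2, Hal, Sds, Gls2, Hsd17b13 and Pck1, giving 337 to 1173 central and 375 to 3638 portal nuclei per mouse. Genes outside the gates followed them in all mice: the central enzyme Cyp2e1 was higher in the central gate in 8 of 8 mice (mean log2 ratio 0.93), and the urea cycle enzymes Arg1 and Ass1 were lower in 8 of 8 (-1.43 and -0.89). In RD tumour 1 these ratios were 0.81, -0.32 and -0.25, the last 2 smaller in size than in any other mouse.

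Lgr5 in the central gate stood at 9.61 (5 UMIs) and 296 CPM in RD tumour 1 and 2, at 254, 161 and 232 CPM in RD no tumour 1 to 3, and at 124, 236 and 200 CPM in WD tumour 1 to 3. In the portal gate it stood at 6.98, 16.7, 10.6, 2.66, 12.9, 8.92, 17.9 and 14.0 CPM, in the same order. Lgr5 was higher in the central gate in 8 of 8 mice, with a mean log2 ratio of 3.83 ± 1.49 (SD, n = 8; exact sign-flip permutation test, p = 0.00781). The paired edgeR fit over 12272 genes gave 4.14 ± 0.21 (SE, adjusted p = 3.27e-09).

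The feedback genes showed the same order in every mouse except RD tumour 1. Axin2 stood at 57.3 CPM in the central and 8.28 CPM in the portal gate of RD tumour 2, and at 21.3 to 33.9 CPM against 2.48 to 5.29 CPM in the RD no tumour and WD tumour mice. RD tumour 1 had 1 Axin2 UMI in its central gate. In the paired edgeR fit the log2 ratio was 2.72 ± 0.21 (SE) for Axin2 (adjusted p = 2.25e-07) and 2.42 ± 0.16 for Notum (5.77e-08), and for Tbx3, higher in 8 of 8 mice, it was 2.19 ± 0.17 (2.97e-07).

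The ligases were less steep. The edgeR log2 ratio was 1.15 ± 0.13 (SE, adjusted p = 9.88e-06) for Rnf43 and 0.63 ± 0.07 (2.34e-05) for Znrf3. Znrf3 was higher in the central gate in 8 of 8 mice and Rnf43 in 7 of 8, and for Rnf43 the exact sign-flip permutation test, which weights the mice alike, gave p = 0.0703 with n = 8. Lgr4, whose protein shares the R-spondin binding role of Lgr5, went the other way, at -0.37 ± 0.07 (adjusted p = 0.00251) and lower in the central gate in 7 of 8 mice. That the ratios of Lgr5 and Lgr4 differ from each other was not tested.

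In all, 6 members were called higher and 1 lower of 8 tested between the zones, against a background of 6.36% of genes called higher and 7.47% called lower. The same 7 passed with each mouse left out in turn. Rspo3, read at 1.94 to 15.4 CPM in both gates, did not pass (log2 ratio 0.19, adjusted p = 0.695), and the Wnt ligands were too sparse in hepatocyte nuclei for the fit. The gates are themselves made of genes known to respond to the same pathway, and 9.33% of 17742 genes had an unadjusted exact p under 0.05 with a higher level in the central gate, where the sign-flip test adjusted over all genes called none.

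**Figure D4:**
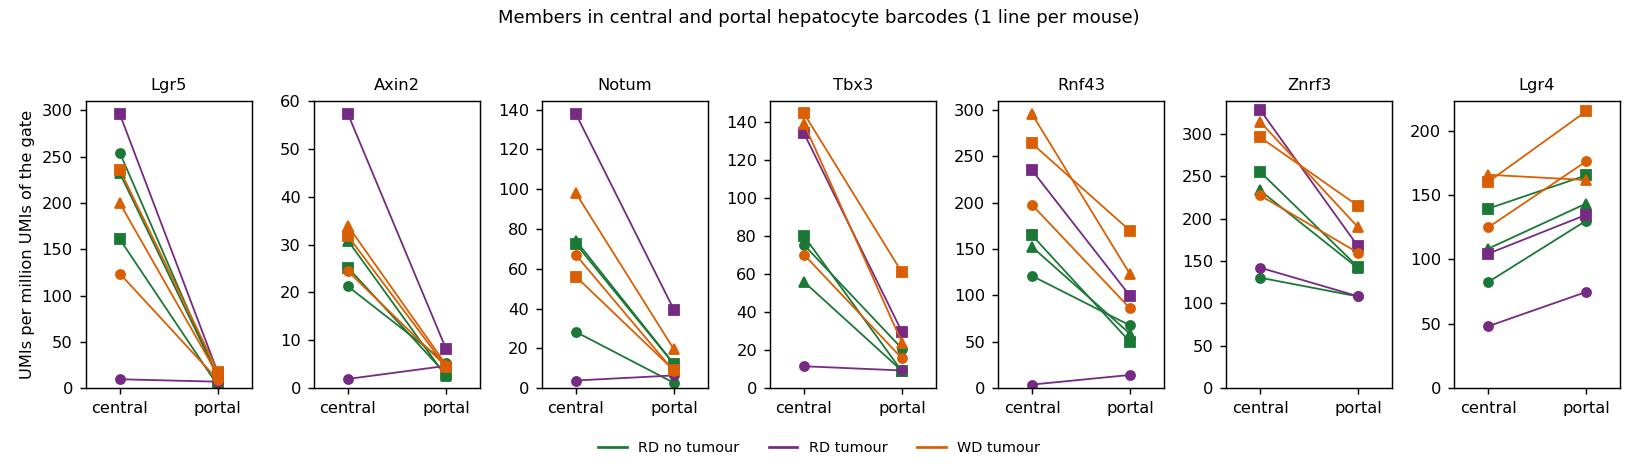
Levels of 7 members in UMIs per 1000000 UMIs of the gate (vertical axis) in central and portal hepatocyte nuclei, with 1 line for each mouse coloured by group. Lgr5 drops from between 124 and 296 in the central gate to at most 17.9 in the portal gate in 7 mice, Lgr4 runs the other way in 7 of 8 mice, and RD tumour 1 lies near 0 for Lgr5, Axin2, Notum and Rnf43.

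Between the groups, no gene passed an adjusted p under 0.05 in any of the 12 fits of edgeR's quasi-likelihood test (whole library, endothelial, stellate and hepatocyte class, each with 3 contrasts). The background is 0% in each, and the members are described below by their values. Numbers of genes tested were 19087 in the whole library, 13944 in the endothelial, 12382 in the stellate and 16889 in the hepatocyte class. At an unadjusted p under 0.05 the endothelial class had 1, 0 and 1 of 10 members for RD tumour against RD no tumour and then WD tumour against each of these (RD no tumour before RD tumour), where 7.28%, 1.69% and 7.17% of all genes had one. The hepatocyte class had 1, 1 and 3 of 10 members in that order, against 13.9%, 3.52% and 10.5% of genes. The contrasts share mice, so their values are not independent of each other. In the whole library, fewer cells of a type and less RNA per cell cannot be told apart.

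Among tumour-bearing and tumour-free livers after diet reversal, Wnt2 was the member with the smallest p in the endothelium. Its mean was 8.08 ± 6.82 CPM (SD, n = 2) in RD tumour and 35.5 ± 3.67 CPM (n = 3) in RD no tumour, a log2 fold change of -2.17 ± 0.54 (SE; edgeR unadjusted p = 0.00409, adjusted p = 0.631). Without RD tumour 1 the log2 fold change was -1.55 (unadjusted p = 0.00670), and without RD tumour 2, which leaves RD tumour 1 alone, it was -3.53 and passed (adjusted p = 0.0225), with that lone mouse assumed to vary like the other groups. Wnt2 and Wnt9b were the members whose groups did not overlap in the endothelium, each lower in RD tumour, against 6.88% of genes. In the whole library no member was without overlap in this contrast, where 16.7% of genes were.

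The make-up of the endothelial class moved with that difference. The 18 endothelial markers made up 0.322% of the class's UMIs in RD tumour 1 and 0.513% in RD tumour 2, below the 0.545% to 0.956% of the other mice. Counted per 1000 endothelial marker UMIs, Wnt2 stood at 1.01 and 2.52 for RD tumour 1 and 2, at 3.36, 4.17 and 7.09 for RD no tumour 1 to 3, and at 3.96, 2.04 and 2.96 for WD tumour 1 to 3. On that scale RD tumour 2 lay within the WD tumour range and remained below the RD no tumour mice. WD tumour 1 (3.96) lay above RD no tumour 1 (3.36), so WD tumour and RD no tumour overlapped as well. Rspo3 per 1000 endothelial marker UMIs was 9.81 in RD tumour 2, within the range of the RD no tumour (7.20 to 13.3) and WD tumour mice (7.45 to 14.5), and 5.20 in RD tumour 1. How far class make-up enters the Wnt2 difference was not tested beyond these values.

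Rspo3 in the endothelium did not separate the groups: the log2 fold change of RD tumour against RD no tumour was -1.39 ± 0.65 (SE; adjusted p = 0.631), and the groups overlapped. In the stellate class, Rspo3 and Axin2 did not overlap between RD tumour and RD no tumour, lower and higher in RD tumour, where 7.46% and 13.7% of genes did so. The stellate Rspo3 fold change was -1.15 ± 0.55 (SE; adjusted p = 0.892), and -0.51 without RD tumour 1, whose 94 stellate nuclei gave 13 Rspo3 UMIs. Without RD tumour 2, which leaves that library alone, the fold change was -2.62. Stellate Axin2 rests on 5 UMIs in RD tumour 1.

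In the hepatocyte class, Rspo3 was the member with the smallest p. It stood at 14.4 and 11.8 CPM in RD tumour 1 and 2 and at 3.06, 2.57 and 3.59 CPM in RD no tumour 1 to 3. In WD tumour 1 to 3 it stood at 4.76, 6.48 and 5.69 CPM. The 3 groups did not overlap, and the share of all genes with 3 groups apart was not computed. Against RD no tumour, the log2 fold change was 1.89 ± 0.33 (SE; edgeR unadjusted p = 0.000525, adjusted p = 0.211) in RD tumour and 0.84 ± 0.31 (unadjusted p = 0.0254, adjusted p = 1.00) in WD tumour. DESeq2 called the first (log2 fold change 1.92, adjusted p = 4.19e-05). Without RD tumour 1 it was 1.79 and not called, without RD tumour 2 it was 1.99 and called (adjusted p = 0.00993), and under a gate of 5 hepatocyte markers it was 1.11.

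These hepatocyte-class levels were lower than the stellate levels in the same mouse, by 5.20-fold in RD tumour 1 and by at least 22.8-fold in the other mice. Stellate markers made up 0.0441% and 0.0373% of hepatocyte-class UMIs in RD tumour 1 and 2 against 0.00732% to 0.0255% in the other mice, and endothelial markers 0.0806% and 0.0357% against 0.0133% to 0.0320%. Rspo3 thus moved with the markers of its source classes, and their part in the difference was not tested. The difference between WD tumour and RD no tumour was -0.13 among nuclei with at most 5% mitochondrial UMIs. It was 0.04 under the gate of 5 markers, which also lets in nuclei with more markers of the source classes. Rspo3 and Wnt2 were the members whose levels in both RD tumour mice exceeded every RD no tumour mouse, where 16.8% of genes did.

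Continued Western diet with tumours, set against reversed diet without tumours, had higher mean levels of several target genes, and none passed. Hepatocyte Rnf43 averaged 156 ± 27.9 CPM over the WD tumour mice and 80.7 ± 6.64 CPM over those without tumour (SD, 3 mice each), a log2 fold change of 0.92 ± 0.73 (SE; adjusted p = 1.00). Axin2 averaged 13.9 ± 2.10 against 9.39 ± 1.21 CPM, a log2 fold change of 0.53 ± 0.58 (SE), and Tbx3 58.0 ± 23.2 against 30.0 ± 7.48 CPM, 0.93 ± 0.68 (SE). The standard errors carry the spread of the RD tumour pair, since 1 model held all 3 groups. Fitted on the WD tumour and RD no tumour mice alone, Rnf43 kept a log2 fold change of 0.92 with a standard error of 0.18 (unadjusted p = 0.00162, adjusted p = 0.467).

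Rspo3, Rnf43 and Axin2 were higher in every WD tumour mouse than in every RD no tumour mouse in the hepatocyte class, where 6.74% of genes were. In the whole library these were Rnf43, Axin2 and Tbx3, against 6.85% of genes. In the endothelial class Rnf43 and Tbx3 were higher without overlap (5.76% of genes) and Wnt2 lower (3.03%), and in the stellate class no member was without overlap (12.5% of genes in either direction). In central nuclei Rnf43 stood at 198 to 296 CPM in WD tumour and at 121 to 165 CPM in RD no tumour, and in portal nuclei at 86.0 to 170 and 49.9 to 67.6 CPM. The zone gates hold part of the same hepatocyte nuclei of the same mice, so these values are no separate evidence. The share of all genes without overlap in the gates was not computed. Of the 10 members in the hepatocyte class, 9 had a log2 fold change above 0, among them Wnt9b at 0.01 ± 2.01 (SE). The median was 0.42, where all genes had a median of -0.01 and 48.4% were above 0. In the whole library and the endothelial class 7 of 10 members were above 0, where 49% and 49.8% of genes were. In the stellate class 4 of 8 were above 0, with a median of -0.04, where 47.4% of genes were. The WD tumour mice include those with the highest mitochondrial shares, and among nuclei with at most 5% mitochondrial UMIs the Rnf43 log2 fold change was 1.11.

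Between the tumour-bearing groups, WD tumour against RD tumour, 3 hepatocyte members had an unadjusted p under 0.05 and none passed (edgeR adjusted p = 0.464 for each). The log2 fold change was -1.05 ± 0.33 (SE; unadjusted p = 0.0141) for Rspo3, -1.84 ± 0.71 (0.0318) for Wnt2 and 0.86 ± 0.34 (0.0353) for Lgr4, read at 143 to 154 CPM in WD tumour and at 70.1 and 113 CPM in RD tumour. Lgr4 was at 0.50 without RD tumour 1 and at 1.31 without RD tumour 2, each a fit with 1 RD tumour mouse. Endothelial Wnt2 differed by 1.43 ± 0.53 (unadjusted p = 0.0279, adjusted p = 0.620). Hepatocyte Lgr4 was higher and Rspo3 and Wnt2 were lower in WD tumour without overlap, against 10.1% and 17.4% of genes in that class. In the endothelium Wnt2 did not overlap, against 10.8% of genes higher without overlap, in the whole library Lgr4 was higher without overlap, against 10.4%, and in the stellate class no member was without overlap, against 23.7%. Without RD tumour 1 the endothelial Wnt2 difference was 0.81, and without RD tumour 2 it was 2.78, each again with 1 RD tumour mouse.

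**Figure D5:**
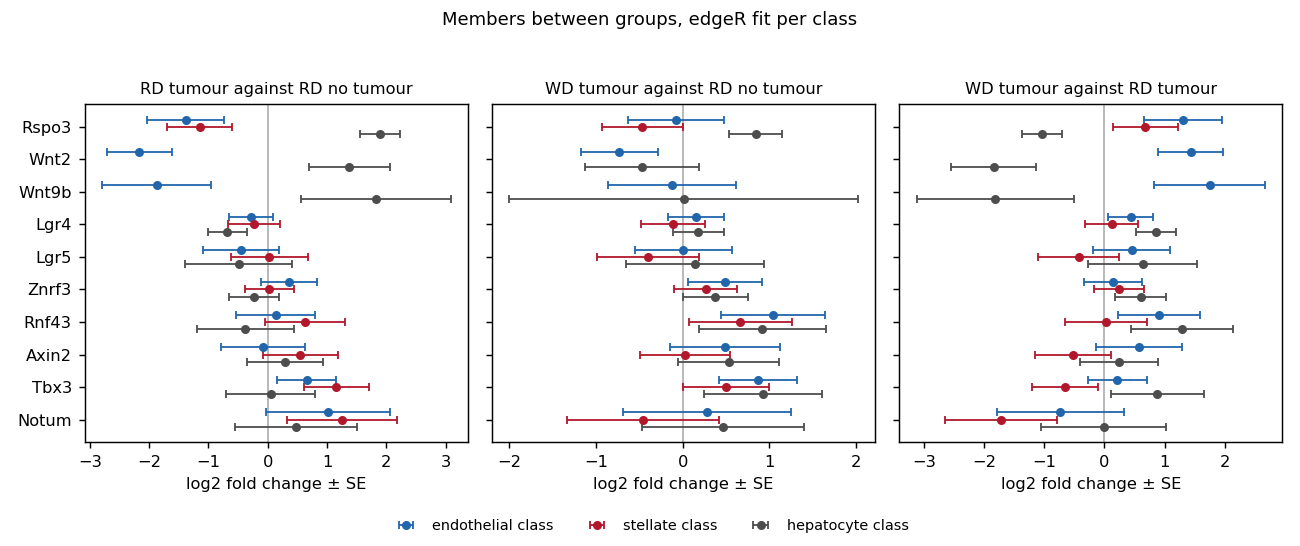
Log2 fold changes of the 10 members (horizontal axis, bars of 1 standard error) from the edgeR fits of the endothelial, stellate and hepatocyte classes, with 1 panel for each group contrast and no stellate value for Wnt2 and Wnt9b, which were not tested there. No member passed an adjusted p under 0.05, and Rspo3 in RD tumour against RD no tumour lies below 0 in the endothelial and stellate classes and above 0 in the hepatocyte class.

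Other genes of the pathway, taken from lists by role, gave no call either. In the hepatocyte class, 7 of 22 other Wnt ligand and secretion genes, 11 of 16 receptors, 21 of 21 intracellular components and 6 of 14 inhibitors passed the low-count filter. Of the 10 central target genes, among them Glul, Cyp2e1 and Oat, 9 had a log2 fold change below 0 in RD tumour against RD no tumour. The median was -0.66 (all genes -0.03, 51.6% of them below 0). In WD tumour against RD no tumour 7 were above 0 (median 0.33, all genes -0.01, 48.4% of them above 0). In WD tumour against RD tumour 9 were above 0 (median 1.09, all genes -0.01, 49.4% of them above 0). Of the 8 portal genes, 7 were below 0 in each contrast against RD no tumour (medians -0.42 and -0.36), where 51.6% of genes were. In WD tumour against RD tumour 6 of the 8 were above 0 (median 0.11). No list median was computed without RD tumour 1. Cyp2e1 was at 93.5 CPM in RD tumour 1 and at 728 to 2929 CPM in the other mice, so the low values of the central list include that mouse. Among inhibitors, the hepatocyte-class level of Dkk3, known as a stellate and fibroblast gene too, was 7.67 and 4.42 CPM in the RD tumour mice. It was 1.86, 0.832 and 0.861 CPM in the RD no tumour mice, and 2.76, 4.51 and 4.50 CPM in the WD tumour mice. Both tumour groups lay above RD no tumour without overlap, as did 16.8% of genes for RD tumour and 6.74% for WD tumour. The log2 fold changes were 2.16 ± 0.50 (SE; edgeR unadjusted p = 0.00281) and 1.71 ± 0.47 (0.00666), and neither passed. The part of transcripts from other classes in these levels was not tested.

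Genes most alike in pattern to 3 members were sought over the 24 sums of 3 classes in 8 mice, among 12635 genes, by Pearson's r of log2(CPM + 1). The points share classes and libraries, so r is a description. For Rspo3 these were Cachd1 (0.99), Gm28258 (0.98) and Phactr1 (0.98), for Wnt2 Fam171a1, Rasal2 and Myct1 (each 0.95), and for Axin2 Tead3 (0.75), Armt1 (0.74) and Bri3bp (0.73).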

How the data were processed

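Nuclear RNA of 8 mouse livers was measured by droplet sequencing (Chromium 3′ chemistry, version 3.1, per the labels). The authors deposited filtered matrices holding the UMI count of each gene in each barcode, made with Cell Ranger 7.0.0 on mm10 per the submitters' processing notes. The counts are neither normalized nor annotated with cell types in the files used here. Whether introns were counted and how doublets or free RNA were treated is not given in the sources used here.

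Barcodes with at least 300 genes were kept. There were 11 classes. A barcode joined a class other than hepatocytes when at least 3 distinct markers of it were read. These had to be at least 2 times as many as of the next class, hepatocytes not counted. The hepatocyte class needed at least 3 distinct hepatocyte markers and fewer than 3 of every other class, with no ratio. Hepatocyte markers were thus not weighed against those of the other classes. Hepatocyte zone gates needed at least 2 distinct zone markers and 2 times those of the other zone. The endothelial sides were gated less strictly: more distinct markers of 1 side than of the other were enough. No doublet was removed in the values of the report. An alternative left out the barcodes with the highest Scrublet scores, at 0.8% expected per 1000 barcodes. UMIs were summed per mouse and class, with at least 20 barcodes. Precision follows the depth: low CPM values rest on few UMIs, whose number is given for some of them, and intervals were not computed.

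Groups come from the labels, which give no batch. Group contrasts used edgeR 4.0.16 (quasi-likelihood F test, TMM, filterByExpr, 1 model of the 3 groups, all 8 mice, Benjamini-Hochberg over all genes tested, threshold 0.05) in R 4.3.3. Within-mouse contrasts used an exact two-sided sign-flip permutation test of log2 ratios with 0.5 UMIs added, for members with at least 20 UMIs, planned with adjustment over the members tested. Its unadjusted p is printed here, since the members are a chosen list, together with an edgeR fit over all genes with mouse as a block, added after seeing the data. The scripts were tested on simulated data. Alternatives were DESeq2 1.42.0, other normalization, filters and gates, and leaving out each mouse. Python 3.11.15, numpy 2.4.6, scipy 1.17.1, pandas 2.3.3, scanpy 1.11.5 and matplotlib 3.10.9 were used. Positions are from GENCODE release 21 for mouse (GRCm38), and promoters from RefSeq (GRCm38.p6).

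The members and lists were chosen with earlier results of these data known. All 10 members are named, together with, of the other pathway and zonation genes, those among the 3 largest absolute fold changes per class and contrast (the text gives a part of them), and the 3 genes most alike in pattern to Rspo3, Wnt2 and Axin2 among those with a mean of at least 5 CPM. A p-value sets a difference against the spread between these mice, which in the group fits was shared by the 3 groups.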

Additional observations from a re-analysis of the deposited data

Results flagged for a closer look

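In 29 series of within-mouse log2 ratios, 10 held a mouse far from the other 7, where chance alone flags about 1 series in 20. The series share mice and are not independent. RD tumour 1 was that mouse in 9 of the 10. Between central and portal hepatocyte nuclei its log2 ratio was 0.57 for Lgr5, -1.58 for Rnf43, -0.73 for Axin2 and -0.44 for Notum, where the other mice lay above 0.63 for each gene. Between endothelial and hepatocyte nuclei its log2 ratio was -0.81 for Wnt9b, 0.45 for Lgr5, 0.29 for Rnf43 and 0.64 for Tbx3. Between the endothelial sides its Wnt2 ratio of 0.17 came from 0 UMIs in each gate and the 0.5 added to them. In RD no tumour 2, Lgr5 had a log2 ratio of -4.17 between central-side and portal-side endothelial nuclei, from 0 UMIs on the central side.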

How the results depend on the processing

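The edgeR count of 0 genes called between groups changed with the tool. Between RD tumour and RD no tumour, between WD tumour and RD no tumour, and between both tumour groups in turn, DESeq2 called 75, 38 and 121 genes in the whole library, 11, 4 and 23 in the endothelial class, 2, 16 and 15 in the stellate class and 677, 50 and 225 in the hepatocyte class. Hepatocyte Rspo3 was the member among them. At an unadjusted p under 0.05, edgeR had 1.69% (endothelial class, WD tumour and RD no tumour) to 13.9% (hepatocyte class, RD tumour and RD no tumour) of genes. Leaving out each mouse gave 0 to 4569, 0 to 0 and 0 to 4438 genes in the whole library, 0 to 1976, 0 to 0 and 0 to 1894 in the endothelial class, 0 to 535, 0 to 2 and 0 to 544 in the stellate class and 0 to 5729, 0 to 0 and 0 to 4857 in the hepatocyte class. Leaving out either RD tumour mouse leaves the other alone in its group, assumed to vary like the other groups. The highest counts came without RD tumour 2. Without RD tumour 1 there were 11 (whole library) and 6 (hepatocyte class) genes between RD tumour and RD no tumour. Leaving out 1 mouse, log2 fold changes between RD tumour and RD no tumour ranged from -1.70 to 0.96 (Tbx3) and -1.49 to 0.99 (Axin2) in the whole library, from -1.96 to 0.93 for endothelial Rnf43, and from -2.22 to 0.90 (Tbx3), -1.63 to 1.09 (Axin2), -3.68 to 0.44 (Lgr5), -3.25 to 0.53 (Rnf43) and -2.95 to 1.41 (Notum) in the hepatocyte class, and hepatocyte Notum between the tumour groups from -0.96 to 3.41. The negative ends, and the positive end for Notum between the tumour groups, came without RD tumour 2, and the other ends without RD tumour 1. Without RD tumour 2, hepatocyte Lgr5 (edgeR adjusted p = 0.00610), Rnf43 (0.00468), Axin2 (0.0183), Tbx3 (0.0230), Lgr4 (0.0470) and Rspo3 (0.00993) passed between RD tumour and RD no tumour, and members passed in the other tables with that group too. With no low-count filter, 3 genes were called in the stellate class between WD tumour and RD no tumour.

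The groups share replicate numbers, and no source says that a number marks a shared litter or batch. Deviations of same-numbered mice from their group means correlated between -0.66 and 0.50 across genes in the whole library. Within groups this small the deviations are tied to each other, so these values cannot decide whether the numbers pair the mice. With the replicate number as a block, 1 gene was called in the stellate class between WD tumour and RD no tumour, and no member changed its call. A block by likeness of whole-library profiles, chosen after seeing the data, gave 2, 4, 64 and 7 genes for that contrast in the whole library and the endothelial, stellate and hepatocyte classes.

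As planned, with adjustment over the members tested, the sign-flip test called 6 of 9 members between zones (6 to 7 with a mouse left out), 2 of 10 between endothelial sides (0 to 0) and 10 between endothelial and hepatocyte nuclei (9 to 10). The 2 between sides were Rspo3 and Wnt2. The Wnt2 call counts RD tumour 1, which had no Wnt2 UMI in either gate. With 7 mice the smallest possible p is larger, and no member was called between sides. In the same order of comparisons, the edgeR fit over all genes called 7, 2 and 10. Depth limits the Wnt ligands most: Wnt9b had 2 to 33 endothelial UMIs per mouse, and no group difference in it passed. The cause of the changes with tool and mouse was not tested.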

Other observations

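Ror1, a receptor for Wnt5a on mesenchymal cells, was among the other pathway genes with the largest fold changes in the stellate class. It stood at 455, 509 and 473 CPM in WD tumour 1 to 3, at 299, 162 and 196 CPM in RD no tumour 1 to 3, and at 185 and 164 CPM in RD tumour 1 and 2, so every WD tumour mouse was above every reversed mouse, as were 8.63% of genes in the class against RD no tumour and 11.7% against RD tumour. The edgeR log2 fold change was 1.06 ± 0.28 (SE; unadjusted p = 0.00521, adjusted p = 1.00) against RD no tumour and 1.59 ± 0.34 (unadjusted p = 0.00127, adjusted p = 0.748) against RD tumour, neither of which passed.

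Lect2, a secreted hepatocyte protein and known beta-catenin target, stood in the hepatocyte class at 12.2 and 31.5 CPM in RD tumour 1 and 2, at 38.3, 57.0 and 36.6 CPM in RD no tumour 1 to 3, and at 86.7, 50.6 and 60.02 CPM in WD tumour 1 to 3. The RD tumour mice lay below both other groups without overlap, as for 8.07% of genes in the class against RD no tumour and 10.1% against WD tumour. The log2 fold change of WD tumour against RD tumour was 1.74 ± 0.50 (SE; edgeR unadjusted p = 0.00843, adjusted p = 0.464).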
